A study of Mus musculus with 11 samples.

Results

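The miR-148 and miR-152 family of microRNAs (miRNAs) was followed in mouse embryonic stem (mES) cells with and without Trim71. Its members were taken by name, as every entry of the deposited miRNA table for the hairpins miR-148a, miR-148b and miR-152. These were 6 mature miRNAs of the 592 in the table, a 3p and a 5p arm from each of the 3 hairpins. The table writes them with the mouse prefix, as in mmu-miR-152-3p, which is left out below.

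A miRNA hairpin is cut by Drosha and Dicer into a short duplex, and one strand, the guide, is loaded into an Argonaute protein. The guide pairs with messenger RNAs mainly through its seed, the stretch from base 2 to base 8 at its 5′ end, so that miRNAs with the same seed form a family with overlapping targets. In this family the 3p arm is the usual guide and the 5p arm the passenger strand. Transcripts of the DNA methyltransferases Dnmt1 and Dnmt3b are among its described targets, and miR-152 is also known from tumours in which its own locus is silenced by DNA methylation.

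Both genotypes came from male C57BL/6 mES cell clones that are homozygous for a floxed Trim71 allele and carry CreERT2 at the ubiquitously active Rosa26 locus. The labels write the genotypes as Trim-/- and Trimfl/fl, called Trim71-/- and Trim71fl/fl here. In Trim71-/- cells the allele was deleted with 4-hydroxytamoxifen (4-OHT), which the labels give as 500 nM for 2 days, followed by at least 7 days of culture, while the Methods of the study give a lower dose and a shorter culture, with DMSO for the Trim71fl/fl cells. All cells were grown with serum and LIF and sorted magnetically for SSEA-1, a surface marker of undifferentiated cells. Each of days 1, 5 and 6 has 1 library per genotype from clone 1, and each of days 3 and 4 has 1 per genotype from clone E3, which gives 10 libraries in 5 same-day pairs of 2 clones. Nothing in the labels says that the days of 1 clone are separate derivations, so p-values measure the spread between these libraries. The mRNA of Trim71 is not measured in small RNA libraries, so the deletion itself could not be checked here.

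The values are normalized read counts, corrected for batch by the authors and raised to a floor of 1 where they fell below it. The number of reads behind a value is unknown, and the precision of each comparison comes from the 5 pairs alone. In 591 of the 592 miRNAs, the family included, the Trim71-/- and the Trim71fl/fl value of a day add up to the same sum within 0.1% on each day on which neither is at the floor. A high Trim71-/- value therefore comes with a low Trim71fl/fl value of that day, both genotypes have the same standard deviation apart from values at the floor, and each pair holds 1 independent difference. A Trim71fl/fl library of day 2 without a partner equalled the mean of the other Trim71fl/fl libraries and was left out. Totals ranged from 3751519 to 5551715 in the Trim71-/- libraries and from 2742673 to 4332525 in the Trim71fl/fl libraries. They stood furthest apart on day 5, when the Trim71-/- total was 102% above its partner. Defining miRNAs of mES cells (27 of the clusters of miR-290 to miR-295 and of miR-302 and miR-367) summed to between 1639121 and 3081141 in every library, and 1 of them, miR-302c-5p, was at the floor in 1 library. Of 13 fibroblast miRNAs, listed by name for the cell type that conditioned the culture medium, 10 had a higher and 3 a lower log2 fold change in Trim71-/- cells. Of the 13, 0 passed the thresholds, and whether they are specific to that cell type was not tested. Their sum ranged from 279093 to 859528 in Trim71-/- and from 38197 to 414163 in Trim71fl/fl libraries, and miR-10b-5p, miR-199b-5p and miR-21a-5p were at the floor in 1 library each. The 38197 is the Trim71fl/fl library of day 5, in which miR-21a-5p is at the floor against 796335 in its partner, and in the other 9 libraries miR-21a-5p makes up most of the sum. Without miR-21a-5p the sums ranged from 16447 to 70316 in Trim71-/- and from 31045 to 84933 in Trim71fl/fl libraries. Their part in the results below was not tested.

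The mature sequences show what joins the family and what tells its members apart. They are given 5′ to 3′ from RefSeq (GRCm38.p6), in which all 6 were found, with the seed in capitals. The first set are the 3p arms, which carry the family seed.
miR-148a-3p: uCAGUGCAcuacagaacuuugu
miR-148b-3p: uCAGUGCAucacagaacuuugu
miR-152-3p: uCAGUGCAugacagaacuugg

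All 3 share the seed CAGUGCA and differ only beyond it. Counting from 1 at the 5′ end, miR-148a-3p and miR-148b-3p differ by C9U and U10C, miR-148a-3p and miR-152-3p by C9U, U10G and U20G, and miR-148b-3p and miR-152-3p by C10G and U20G, where the base of the first-named miRNA stands first. In addition miR-152-3p is 1 base shorter, at 21 against 22 bases. Reads were aligned with the default settings of Bowtie2, per the Methods of the study, and how the counting step assigned a read that fits more than 1 member is not given in the sources used here.

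The second set are the 5p arms, shown because their seeds split the family.
miR-148a-5p: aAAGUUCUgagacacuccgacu
miR-148b-5p: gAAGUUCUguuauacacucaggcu
miR-152-5p: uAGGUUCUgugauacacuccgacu

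Here miR-148a-5p and miR-148b-5p share the seed AAGUUCU, and miR-152-5p has the seed AGGUUCU, which differs by A3G from either. Of 24 bases 19 are the same in miR-148b-5p and miR-152-5p, aligned without gaps. The shorter miR-148a-5p, of 22 bases, was aligned to each with a gap of 2 bases, placed where it gives the most matches, and shares 18 bases with miR-148b-5p and 19 with miR-152-5p.

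The 3 hairpins lie on different chromosomes and are shown with both arms in capitals, so that the arm compared with each guide can be seen in place.
Mir148a: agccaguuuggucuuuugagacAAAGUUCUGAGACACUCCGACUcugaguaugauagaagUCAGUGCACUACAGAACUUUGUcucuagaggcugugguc
Mir148b: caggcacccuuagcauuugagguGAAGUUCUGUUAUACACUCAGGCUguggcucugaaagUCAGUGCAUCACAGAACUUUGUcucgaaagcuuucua
Mir152: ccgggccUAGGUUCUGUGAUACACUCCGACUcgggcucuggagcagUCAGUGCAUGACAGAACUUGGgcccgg

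On GRCm38, with positions from RefSeq and overlapping genes from GENCODE, Mir148a is at chr6:51269812-51269910 on the minus strand and overlaps no annotated gene, with the nearest coding gene, Nfe2l3, 162760 bp away. Mir148b is at chr15:103285125-103285221 on the plus strand, in intron 1 of Copz1, a gene of the same strand. Mir152 is at chr11:96850393-96850465 on the plus strand, in intron 1 of Copz2, also of the same strand. Copz1 and Copz2 are paralogues that encode the zeta subunits of the COPI vesicle coat, so that 2 of the 3 hairpins sit in the same intron of related host genes.

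The family was expressed at very different levels, with miR-148a-3p as its dominant member. Over the 10 libraries miR-148a-3p ranked 9 of 592 by mean value and made up between 2.54% and 4.83% of a library's total. The family guide next in level, miR-148b-3p, ranked 36, and miR-152-3p ranked 131. Among the 5p arms miR-148a-5p ranked 110, miR-148b-5p 274 and miR-152-5p 358.

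A read covers a whole mature miRNA, so dividing by length matters little here, and the order of the means is the same without it. Per base of mature sequence, miR-148a-3p stood at 6923, miR-148b-3p at 511, miR-148a-5p at 72.5, miR-152-3p at 51.6, miR-148b-5p at 7.02 and miR-152-5p at 3.32. The level of miR-148a-3p was above that of miR-148b-3p in 10 of 10 libraries, by between 5.39 and 43.8 times. The order of the next neighbours, miR-148b-3p above the passenger strand miR-148a-5p, also held in 10 of 10 libraries, and their ranges did not overlap. The passenger strand miR-148a-5p and the guide miR-152-3p could not be put in order, since the former was higher per base in 6 of 10 libraries. Below them, miR-152-3p was above miR-148b-5p and miR-148b-5p above miR-152-5p in 10 of 10 libraries each, although the ranges of both pairs overlapped between libraries. These are orders of normalized read counts, and how ligation and amplification weigh each sequence is unknown.

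Since the 3 guides share a seed, their values were also summed. The summed guides stood at 172992 ± 46759 in Trim71-/- libraries and at 156277 ± 46759 in Trim71fl/fl libraries (SD, n = 5 each), with ranges of 114357 to 227133 and 102137 to 214913 that overlap. This sum made up between 3.05% and 4.96% of a library's total. Within it miR-148a-3p accounted for 83.4% to 97.4%, miR-148b-3p for 2.22% to 15.5% and miR-152-3p for 0.167% to 1.09%.

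The first comparison asks whether the mature family members differed between Trim71-/- and Trim71fl/fl cells of the same day. None of the 6 did beyond the spread between days, and their values follow by role, the guides first.

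The dominant guide, miR-148a-3p, had Trim71-/- values of 151064, 140505, 95412, 215181 and 202470 on days 1, 3, 4, 5 and 6. The Trim71fl/fl values of the same days were 153566, 164125, 209219, 89450 and 102160. The ranges of both genotypes thus overlapped, with Trim71-/- the higher on days 5 and 6 and the lower on days 1, 3 and 4. The means were 160926 ± 48672 and 143704 ± 48672 (SD, n = 5), and the log2 fold change of log2(value + 1) was 0.17 (SE 0.42, 95% interval -0.84 to 1.19, exact p = 0.875, limma adjusted p = 0.862).

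The guide miR-148b-3p had Trim71-/- values of 8242, 8350, 17700, 10845 and 9368 on days 1, 3, 4, 5 and 6. Its Trim71fl/fl values were 14230, 14123, 4773, 11628 and 13105. Trim71-/- was the lower on 4 of 5 days, and on day 4 both libraries stood at the far end of their genotype in the opposite direction. The groups therefore overlapped, with means of 10901 ± 3942 and 11572 ± 3942 (SD, n = 5) and a log2 fold change of -0.05 (SE 0.46, 95% interval -1.18 to 1.08, exact p = 0.9375, limma adjusted p = 0.975). Without day 4 it was -0.53, which did not pass the thresholds of the study.

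The least abundant guide, miR-152-3p, had Trim71-/- values of 547, 951, 1245, 1107 and 1973 on days 1, 3, 4, 5 and 6. Its Trim71fl/fl values were 1619, 1215, 922, 1059 and 193. Day 6 stood apart, with the highest Trim71-/- and the lowest Trim71fl/fl value of all. The order of the genotypes on day 1 was the opposite, so that the groups overlapped. Their means were 1165 ± 522 and 1002 ± 522 (SD, n = 5), and the log2 fold change was 0.39 (SE 0.70, 95% interval -1.31 to 2.08, exact p = 0.6875, limma adjusted p = 0.820).

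Of the passenger strands, miR-148a-5p had Trim71-/- values of 1688, 1419, 1, 2623 and 1516 on days 1, 3, 4, 5 and 6, against 1498, 1767, 3216, 563 and 1670 in Trim71fl/fl. The value of day 4 is at the floor, and the constant sum places it at -30.3 before the floor, a value that batch correction can give and a read count cannot. That 1 library set the fold change. The means were 1449 ± 940 and 1743 ± 953 (SD, n = 5). The log2 fold change of -1.74 (SE 1.86, 95% interval -6.28 to 2.80, exact p = 0.6875, limma adjusted p = 0.706) became 0.48 without day 4.

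The passenger miR-148b-5p had Trim71-/- values of 220, 195, 89.0, 182 and 150 and Trim71fl/fl values of 117, 142, 248, 155 and 187 on days 1, 3, 4, 5 and 6. Trim71-/- was the higher on days 1, 3 and 5. The groups overlapped, with means of 167 ± 50.3 and 169.9 ± 50.3 (SD, n = 5) and a log2 fold change of -0.04 (SE 0.40, 95% interval -1.01 to 0.93, exact p = 0.9375, limma adjusted p = 0.975).

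The lowest member, miR-152-5p, had Trim71-/- values of 61.2, 66.5, 1, 94.3 and 81.2 and Trim71fl/fl values of 87.0, 81.8, 202, 54.0 and 67.0 on days 1, 3, 4, 5 and 6. Again the Trim71-/- value of day 4 is at the floor, at -54.0 before it. The means were 60.8 ± 35.9 and 98.4 ± 59.5 (SD, n = 5). The log2 fold change was -1.28 (SE 1.13, 95% interval -4.04 to 1.48, exact p = 0.5625, limma adjusted p = 0.667), and 0.07 without day 4.

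**Figure D1:**
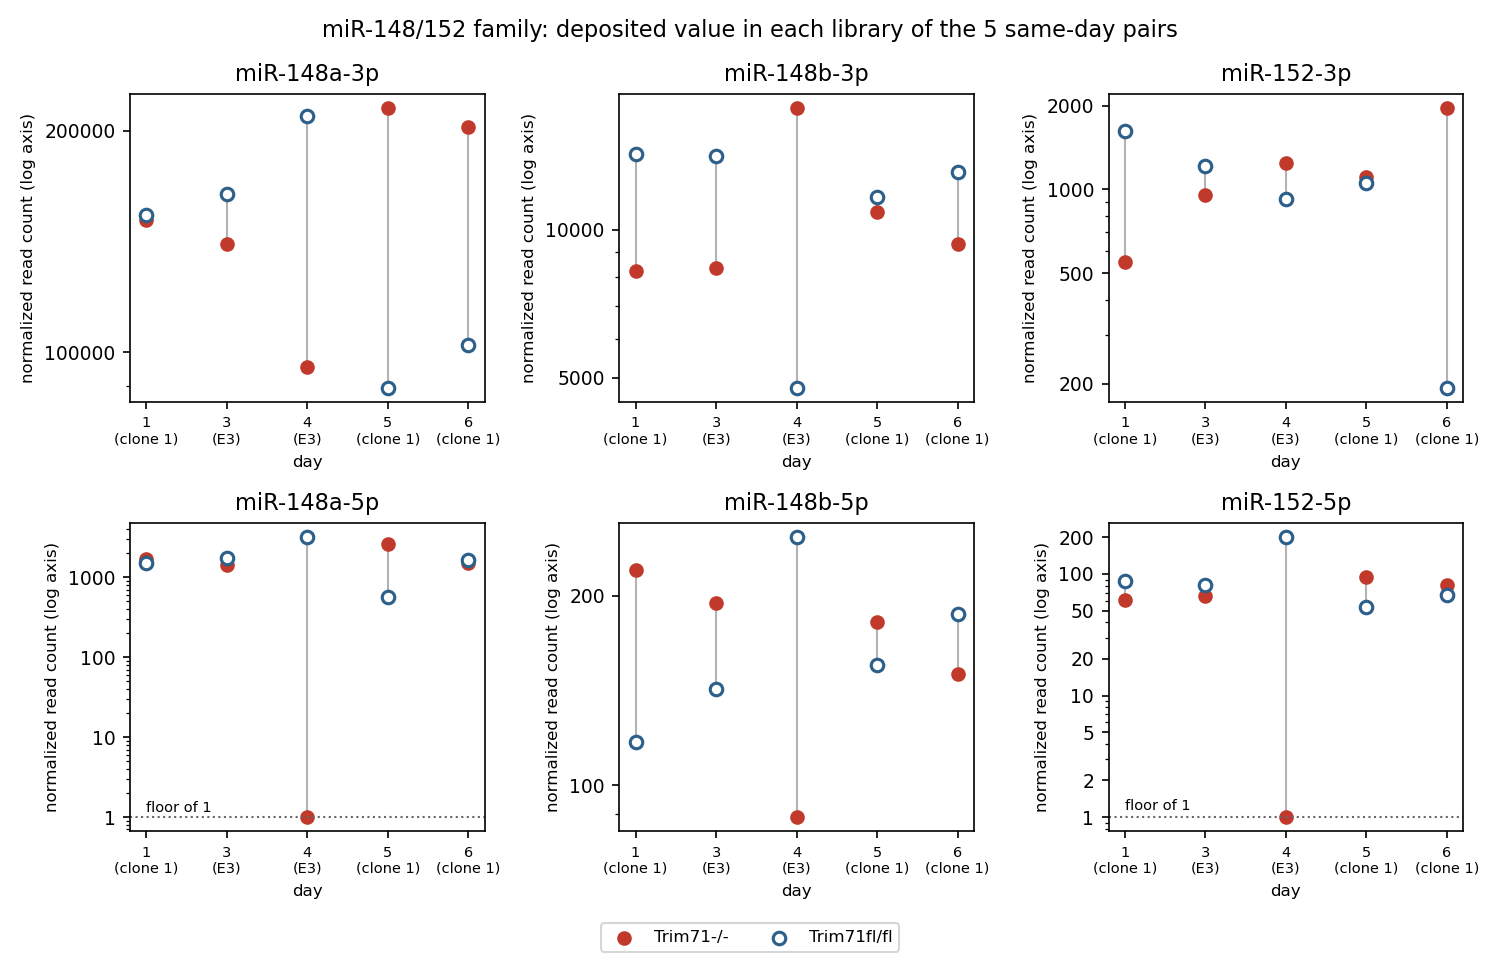
Normalized read count (log axis) of the 6 mature miRNAs in each library, by day and clone on the horizontal axis, with filled points for Trim71-/-, open points for Trim71fl/fl and a line joining each same-day pair. The points of both genotypes interleave in every panel, and the dotted line marks the floor of 1, where the Trim71-/- library of day 4 lies for miR-148a-5p and miR-152-5p.

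The study called a miRNA when its fold change exceeded 1.5, up or down, with p below 0.05 before adjustment. By these thresholds 0 of the 6 family members were called, where 32 of all 592 miRNAs passed (5.41%). Of those, 5 (0.845%) were higher and 27 (4.56%) lower in Trim71-/-. At an limma adjusted p under 0.05, 0 of the 592 miRNAs passed, and at an unadjusted p under 0.05 again 32, none of them a family member. Exact permutation of the genotypes within days, two-sided and with 32 sign patterns, gave p-values between 0.5625 for miR-152-5p and 0.9375 for both arms of miR-148b, where 0.0625 is the smallest that 5 pairs can give. None of the 6 kept 1 direction on all 5 days, which 68 of the 592 (11.5%) did. Of those 68, 31 were higher (5.24%) and 37 lower (6.25%) in Trim71-/-. All 6 had overlapping genotypes, where 68 of the 592 (11.5%) had genotypes that did not overlap. Because the same-day sums are equal, overlap restates the mixed directions and is no separate result.

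The width of the intervals states what these pairs could show. The 95% intervals of the log2 fold change reached from -0.84 to 1.19 for miR-148a-3p, from -1.18 to 1.08 for miR-148b-3p and from -1.31 to 2.08 for miR-152-3p, and these pairs leave changes within those bounds possible. The median log2 fold change over the 6 members was -0.04, with 2 higher and 4 lower, and over the 3 guides it was 0.17. Over all 592 miRNAs the median was 0.03, with 303 higher and 289 lower.

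**Figure D2:**
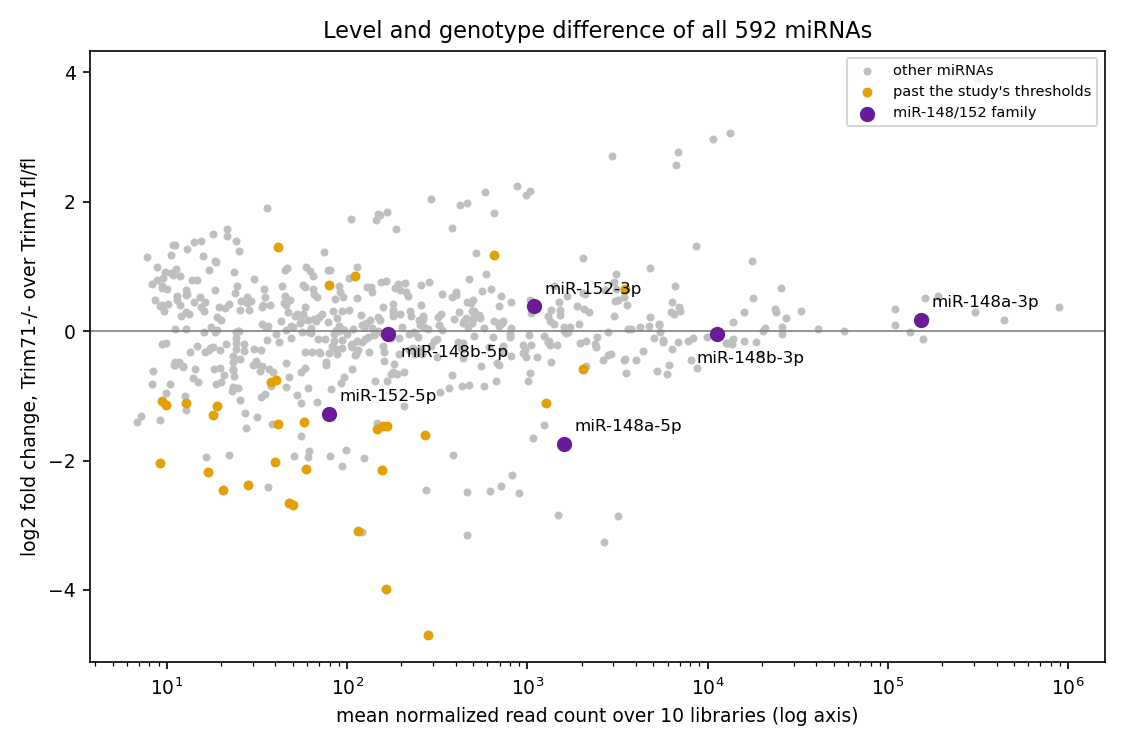
Log2 fold change of Trim71-/- over Trim71fl/fl against the mean normalized read count over 10 libraries (log axis) for all 592 miRNAs, with the 32 past the thresholds of the study and the 6 family members in colours of their own. The guides miR-148a-3p, miR-148b-3p and miR-152-3p lie near 0 from the right to the middle of the plot, while miR-148a-5p and miR-152-5p lie below -1 through 1 library each.

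The day-by-day differences show how the members varied within the same averages. For miR-148a-3p the log2 differences of days 1, 3, 4, 5 and 6 were -0.02, -0.22, -1.13, 1.27 and 0.99. Those of miR-148b-3p were -0.79, -0.76, 1.89, -0.10 and -0.48, the other way round on days 4, 5 and 6. Those of miR-152-3p were -1.56, -0.35, 0.43, 0.06 and 3.35, with the extremes on days 1 and 6. Guides with the same seed thus pointed in different directions on days 4, 5 and 6, and days 1 and 3 were the only days on which all 3 pointed the same way, lower in Trim71-/-.

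Each day has its own spread over the table, against which these differences can be read. A difference beyond 1 on the log2 scale in either direction was rarest on day 3, with 16.0% of the 592 miRNAs, and most frequent on day 5, with 43.2%. Day 4 had 32.6% of such differences, while days 1 and 6 had 27.0% each. On day 4, 26 of the 592 miRNAs had a larger difference than the 1.89 of miR-148b-3p. On that day the arms miR-148a-5p (-10.65) and miR-152-5p (-6.67) were among the lowest of the table, with 1 and 4 miRNAs below them, both through values at the floor, which 19 miRNAs had in 1 of the libraries of day 4.

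Day 6 is given apart, since miR-152-3p differed most on it. Its log2 difference of 3.35 (1973 against 193) was exceeded by 29 of the 592 miRNAs on that day. The other members were less far apart on day 6, at 0.99 for miR-148a-3p, -0.48 for miR-148b-3p, -0.14 for miR-148a-5p, -0.31 for miR-148b-5p and 0.27 for miR-152-5p. On day 6, 43 miRNAs had a value at the floor in 1 of its libraries, the most of any day, and the quartiles of the 592 differences were -0.54 and 0.51.

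Without day 6, the log2 fold change over days 1, 3, 4 and 5 turned to -0.35 for miR-152-3p. It also crossed 0 for miR-148a-3p (-0.03), miR-148b-3p (0.06) and miR-148b-5p (0.03), and stayed below 0 for miR-148a-5p (-2.14) and miR-152-5p (-1.67). The fibroblast miRNAs summed to 386214 in the Trim71-/- and 307021 in the Trim71fl/fl library of day 6, a smaller gap than on days 1, 3 and 5.

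**Figure D3:**
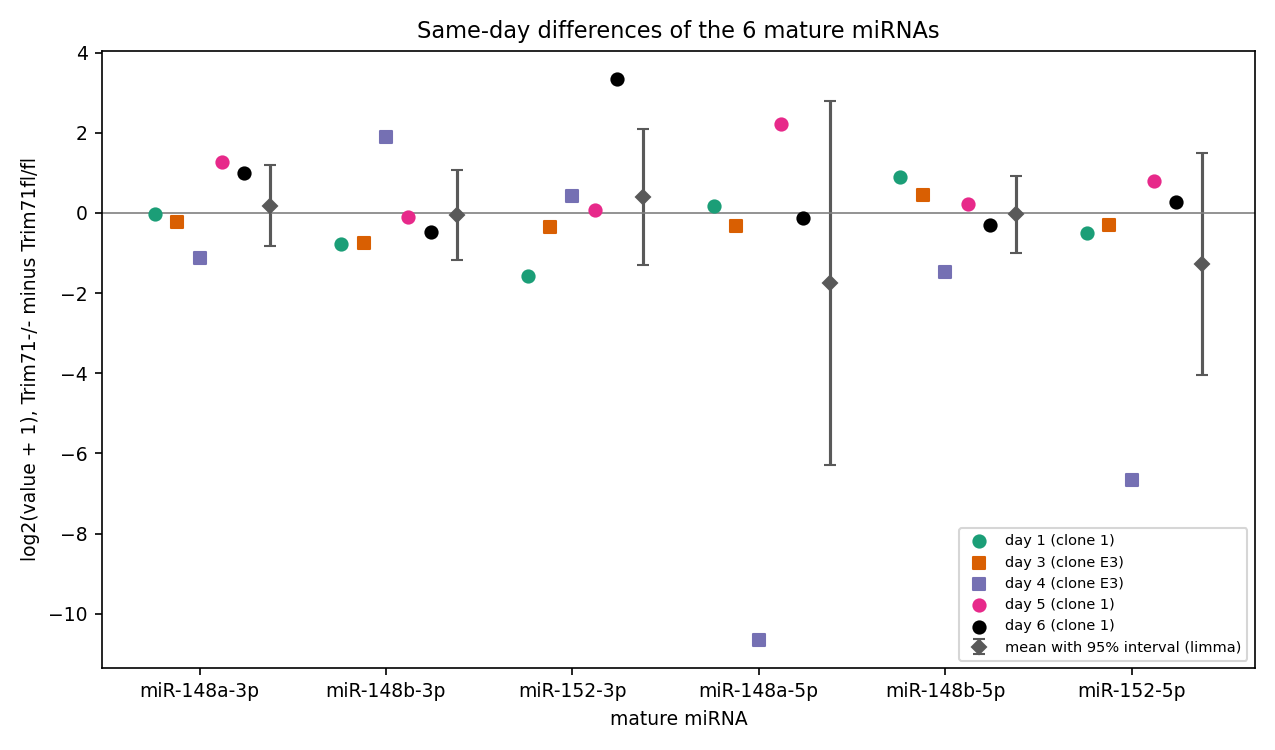
Same-day differences of log2(value + 1), Trim71-/- minus Trim71fl/fl, for each mature miRNA, with circles for clone 1, squares for clone E3, 1 colour per day, and the limma mean with its 95% interval as a grey diamond with bars. Every interval includes 0, the black point of day 6 stands apart for miR-152-3p at 3.35, and the squares of day 4 stand apart for miR-148a-5p at -10.65 and miR-152-5p at -6.67.

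The next comparison asks whether the genotype difference was the same in both clones. For miR-148a-3p the mean log2 difference was 0.74 in clone 1 (3 days) and -0.68 in clone E3 (2 days). The difference between clones, E3 minus 1, was -1.42 (SE 0.68, limma adjusted p = 0.627). For miR-148b-3p the signs were the other way, -0.46 in clone 1 and 0.57 in clone E3, with a difference of 1.02 (SE 0.92, limma adjusted p = 0.674). Neither difference passed the test. For miR-152-3p the means were 0.62 and 0.04, with a difference of -0.57 (SE 1.51, limma adjusted p = 0.869).

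The passenger strands miR-148a-5p (-6.23) and miR-152-5p (-3.67), each at a limma adjusted p of 0.627, had the lowest differences between clones of the family, both through day 4, and miR-148b-5p had -0.78 (limma adjusted p = 0.703). Among all 592 miRNAs, 1 (0.169%) passed at an adjusted p under 0.05 and 33 (5.57%) at an unadjusted p under 0.05, none of them a family member. In clone E3 alone, miR-148a-5p and miR-152-5p passed the thresholds of the study, with log2 fold changes of -5.48 and -3.48, each resting on the floored value of day 4. In that fit 28 of all 592 miRNAs (4.73%) were lower and 8 (1.35%) higher in Trim71-/-. A clone and the days on which it was harvested cannot be told apart here.

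The arms of each hairpin were then compared, since both come from 1 precursor. The passenger strand made up a small share of the sum of both arms for miR-148a and miR-148b and a larger one for miR-152. In the libraries above the floor, the 5p arm held between 0.625% and 1.61% of the hairpin of miR-148a (median 1.07%, 9 libraries). For miR-148b it held between 0.500% and 4.94% (median 1.49%, 10 libraries). For miR-152 it held between 3.95% and 25.7% (median 6.53%, 9 libraries), and its lowest share was above the highest share of miR-148a.

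For the hairpin of miR-152 the 2 highest shares, 25.7% and 18.0%, were in the Trim71fl/fl libraries of days 6 and 4, and in the others the share stayed between 3.95% and 10.1%. On day 6 this went with the low miR-152-3p of that library, 193, against 67.0 for miR-152-5p. On day 4 it went with the high miR-152-5p of 202.

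No difference in arm use between genotypes stood beyond the spread between days. Exact permutation of 5 pairs cannot give a p-value below 0.0625, so this test could not have called one at 0.05. The log2 ratio of 5p to 3p in Trim71-/- minus that in Trim71fl/fl was -1.92 (SE 1.93) for miR-148a, 0.01 (SE 0.89) for miR-148b and -1.66 (SE 1.54) for miR-152. The values of miR-148a and miR-152 rest on the floored 5p arms of day 4, and without that day they were -0.017 and -0.31. Two-sided exact permutation within days gave p = 0.5, 1 and 0.5, and adjusted over the 3 hairpins 0.75, 1 and 0.75. For miR-148b the ratio was higher in Trim71-/- on days 1, 3, 5 and 6, by 1.69, 1.21, 0.33 and 0.17, and lower on day 4, by a log2 difference of -3.36. Without day 4, the only day of opposite sign, its mean was 0.85. The exact p of 0.125, the smallest that 4 pairs can give, is then fixed by leaving out that day and is no test. Leaving out day 1, 3, 5 or 6 instead gave means of -0.41, -0.29, -0.072 and -0.034.

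The arms of 1 hairpin did not always differ in the same direction. Those of miR-148b had opposite signs on days 1, 3, 4 and 5 and the same sign on day 6. Those of miR-148a had the same sign on 3 of 5 days, and those of miR-152 on 4 of 5.

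**Figure D4:**
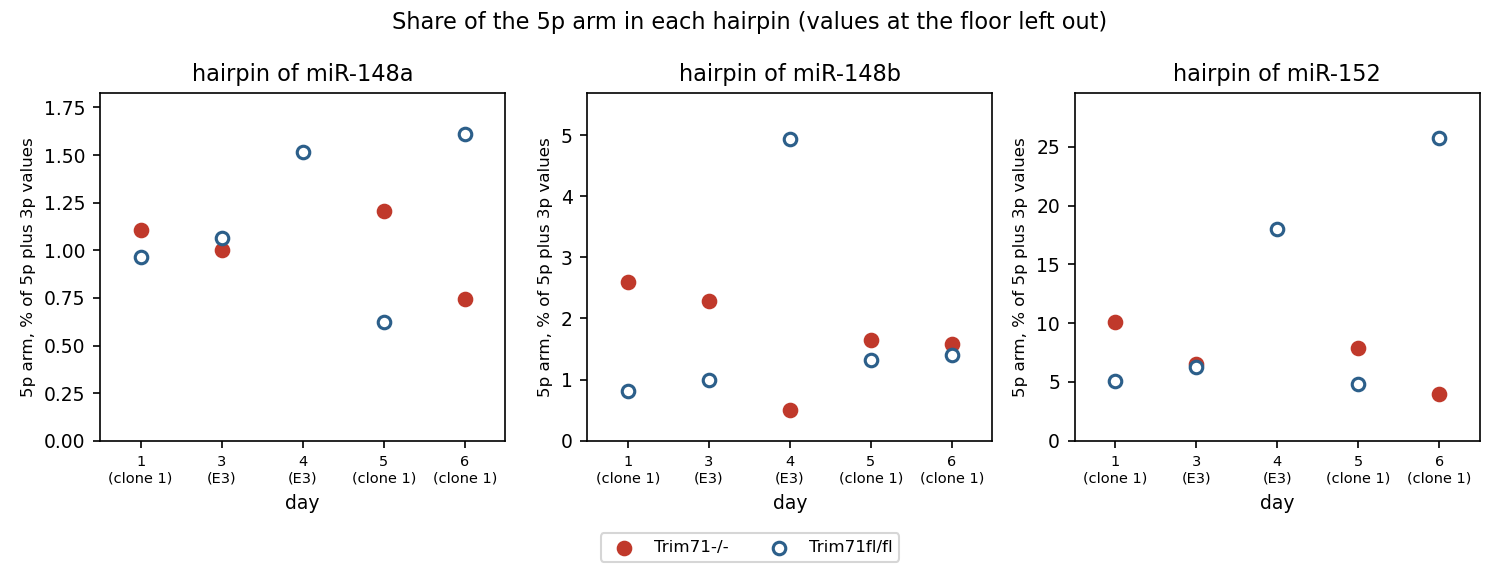
Share of the 5p arm in the sum of both arms of each hairpin, in percent, by day and clone, with filled points for Trim71-/- and open points for Trim71fl/fl and with the 2 values at the floor left out. The share reaches at most 1.61% for miR-148a, while for miR-152 the open points of days 4 and 6 stand at 18.0% and 25.7%. The 5p value behind the open point of day 4 mirrors a partner value at the floor.

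Ratios between guides within a library set the members of 1 sample against each other. The batch correction of each miRNA followed the normalization, so the scaling of libraries need not cancel in these ratios. They were computed after the values had been seen and are given as a description with no test. The ratio of miR-148a-3p to miR-148b-3p was 18.3, 16.8, 5.39, 19.8 and 21.6 in Trim71-/- and 10.8, 11.6, 43.8, 7.69 and 7.80 in Trim71fl/fl on days 1, 3, 4, 5 and 6. Trim71-/- had the higher ratio on 4 days, including all 3 of clone 1, and Trim71fl/fl on day 4. The log2 ratio in Trim71-/- over that in Trim71fl/fl averaged 0.22 with an SD of 1.86 over 5 days, and 1.03 without day 4.

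The ratios to miR-152-3p had no such order. For miR-148b-3p over miR-152-3p, Trim71-/- was higher on 2 of 5 days, and the pair of day 6, 4.75 in Trim71-/- and 67.8 in Trim71fl/fl, was the furthest apart. For miR-148a-3p over miR-152-3p, Trim71-/- was higher on 3 of 5 days, with 103 in Trim71-/- and 529 in Trim71fl/fl on day 6.

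**Figure D5:**
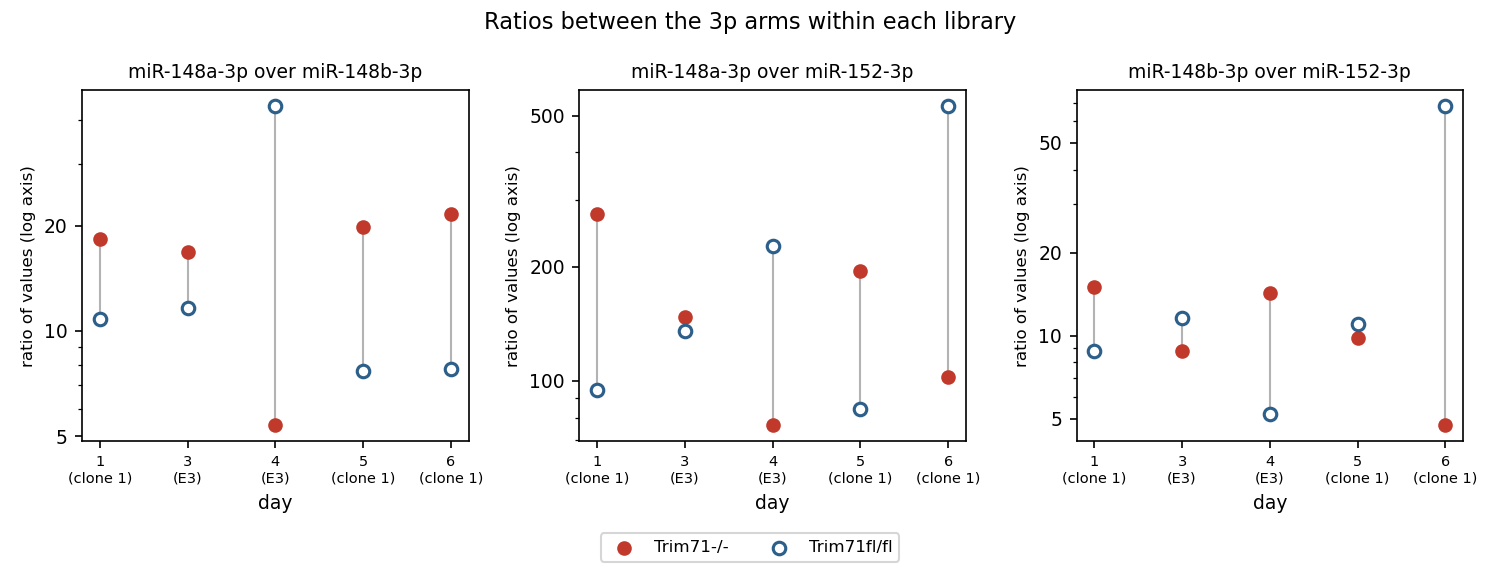
Ratios between the values of the 3p arms within each library (log axes), by day and clone, with filled points for Trim71-/-, open points for Trim71fl/fl and a line joining each same-day pair. For miR-148a-3p over miR-148b-3p the filled point is the upper one on days 1, 3, 5 and 6 and the lower one on day 4.

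The family seed also occurs in other miRNAs, and these were compared with the members. The letters CAGUGCA, searched in the mature strand only, are found in 17 of the 1679 mature mouse sequences of RefSeq (1.01%), and at base 2 only in the 3 guides of the family. Of the miRNAs in the table, 463 could be matched to a sequence, and 9 others hold these letters. Of these, 3 have them from base 1, which shifts their own seed by 1 base, and these belong to the family of miR-130 and miR-301. Another 3p arm of that family in the table, miR-301b-3p, was not matched to a sequence.
miR-130a-3p: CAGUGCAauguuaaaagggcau
miR-130b-3p: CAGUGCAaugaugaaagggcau
miR-301a-3p: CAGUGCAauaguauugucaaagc

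In this group miR-130a-3p had a log2 fold change of -0.44 (limma adjusted p = 0.680), miR-130b-3p of -0.33 (adjusted p = 0.680) and miR-301a-3p of -1.10 (adjusted p = 0.607). The other 6 (miR-139-5p, miR-141-5p, miR-106a-5p, miR-106b-5p, miR-17-5p and miR-33-3p) hold the letters further in, from base 5 in miR-139-5p, base 8 in miR-141-5p and base 12 in the other 4. Of the 9 miRNAs 0 passed the thresholds of the study.

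Other hairpins with miRNAs known to act on transcripts of DNA methyltransferases were set beside the family. The list had 14 entries of the table, from miR-29, which is known to target Dnmt3a and Dnmt3b, and from miR-101, miR-126, miR-143, miR-185 and miR-342. Every arm was taken by name, also the less abundant miR-101a-5p, miR-126a-5p, miR-143-5p, miR-185-3p and miR-342-5p. Action on these transcripts is not claimed for those arms, and all but miR-342-5p were lower in Trim71-/-. They are included in the counts and the median given next. Of the 14, 0 passed the thresholds in either direction, with 4 higher and 10 lower in Trim71-/- and a median log2 fold change of -0.29, against 0.03 over the table. At the highest level were miR-143-3p, also one of the listed fibroblast miRNAs, with a log2 fold change of 0.29 (SE 0.45, limma adjusted p = 0.773), and miR-101a-3p with -0.17 (SE 0.44, limma adjusted p = 0.870). Both stood below miR-148a-3p, at ranks 20 and 25 of 592 against 9. The miR-29 entries had log2 fold changes of -0.78 (SE 0.39, limma adjusted p = 0.607) for miR-29a-3p and -1.27 (SE 0.76, limma adjusted p = 0.635) for miR-29c-3p. For miR-29b-3p it was -2.51 (SE 1.55, limma adjusted p = 0.638), with 1 value at the floor.

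The pattern of miR-152-3p over the 5 days was compared with that of 291 miRNAs without a value at the floor and with a mean of at least 100. The nearest by root mean square distance of the same-day log2 differences were miR-497b (0.63), miR-126b-5p (0.72) and miR-1981-5p (0.81). Their differences on day 6 were 2.90, 3.00 and 3.66, which the choice by distance to the 3.35 of miR-152-3p largely fixes. Their log2 fold changes were 0.76, 0.69 and 0.89, and 0 of the 3 passed the thresholds.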

How the data were processed

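Per the Methods of the study and the submitters' processing notes, the authors made small RNA libraries (the labels instead name a TruSeq RNA kit and paired-end reads), sequenced them on a HiSeq system, called bases with CASAVA 1.8, aligned reads with Bowtie2 2.2.1 to mm10 and miRBase, counted them in Partek 6.6, normalized with DESeq2, corrected for batch, set values below 1 to 1 and removed low miRNAs. The deposited values are a signal, in units of normalized reads and not raw counts, and the depth per library is unknown. Batch correction can shift values, also below 0, and the same-day sums of the deposited values are equal.

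From these values, log2(value + 1) was fitted with limma 3.58.1 in R 4.3.3 (lmFit, eBayes without trend) on genotype and day over all 592 miRNAs in 10 libraries, with Benjamini-Hochberg adjustment over the table. Day is the replicate block. The pairing comes from the labels, which give 1 library per genotype, day and clone. The fit was tested on simulated normal differences with a capped spread. The simulation held no floor and no equal same-day sums of values, so it does not cover these features of the data. Tables were made with Python 3.11.15, pandas 2.3.3 and scipy 1.17.1, and plots with matplotlib 3.10.9. Interactions with clone were fitted with limma on the 5 same-day differences.

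Named are the family members, the 3 miRNAs nearest to miR-152-3p, miRNAs holding the family seed, and the list of hairpins set beside the family for DNA methyltransferases. The members and lists were chosen with earlier results of these data known. A total of 19 alternatives was tried.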

Additional observations from a re-analysis of the deposited data

Results flagged for a closer look

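Within the 5 libraries of a genotype, a library was singled out when its gap to the nearest value exceeded 0.71 of the range (Dixon's 95% criterion). Of 12 groups examined 3 met it. The rate of about 1 in 20 by chance holds for independent groups. The genotypes of a miRNA mirror each other here, so the count cannot be set against that rate. All 3 are libraries of day 4. For miR-148b-3p the Trim71-/- value of day 4 was 17700 with the next at 10845, and the Trim71fl/fl value of day 4 was 4773 with the next at 11628. These mirror each other through the equal same-day sums and are 1 event. For miR-152-5p the Trim71fl/fl value of day 4 was 202 with the next at 87.0, and its partner is at the floor. On that day the fibroblast miRNAs summed to 279093 in Trim71-/- and 414163 in Trim71fl/fl, the only day with the lower sum in Trim71-/-, and the total of the Trim71-/- library was 13.4% below its partner.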

How the results depend on the processing

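No family member passed the thresholds of the study in the fit reported or in any alternative except clone E3 alone, where 2 did (miR-148a-5p and miR-152-5p) through values at the floor on day 4. Of 113 alternative values of single members, 94 kept direction and call, 17 reversed and 2 were past the thresholds. Among those that kept both, miR-148a-5p went from -1.74 to -0.27 and miR-152-5p from -1.28 to -0.69 on untransformed values, and to -1.26 and -0.81 with a pseudocount of 10. Without the replicate block, that is without the pairing by day, 42 miRNAs of the table were higher and 59 lower in place of 5 and 27, and no call on the members changed. Clone in place of day gave 36 and 57, all 11 libraries without the block 45 and 71, clone 1 alone 14 and 45, division by library totals 2 and 48, and by totals without miR-290 to miR-295 2 and 43. Clone E3 alone gave 8 higher and 28 lower, a pseudocount of 10 gave 8, untransformed values 9, also before the floor, and a mean of at least 100 gave 10 lower and removed miR-152-5p. Leaving out 1 pair gave 4 to 23 higher and 11 to 44 lower (23 and 44 without day 4, 11 lower without day 1, 15 lower without day 6, 8 higher without day 5). Division by totals moved the median of all miRNAs by -0.27.

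Leaving out 1 pair moved the log2 fold change of miR-148a-3p between -0.10 (without day 5) and 0.50 (without day 4), of miR-148b-3p between -0.53 (without day 4) and 0.14 (without day 1) and of miR-152-3p between -0.35 (without day 6) and 0.87 (without day 1). The passengers ranged from -2.73 to 0.48 (miR-148a-5p), -0.28 to 0.32 (miR-148b-5p) and -1.80 to 0.068 (miR-152-5p), each highest without day 4. Reversed besides were miR-148a-3p in clone E3 (-0.68) and by both divisions by totals (-0.095 and -0.078), miR-148b-3p in clone E3 (0.57), and in clone 1 miR-148a-5p (0.75), miR-148b-5p (0.27) and miR-152-5p (0.19). The arm ratio ranged from -0.41 to 0.85 for miR-148b, from -2.64 to -0.017 for miR-148a and from -2.35 to -0.31 for miR-152 when 1 pair was left out, each highest without day 4. The median over the members ranged from -0.19 to 0.34 when 1 pair was left out, and was 0.44 in clone 1, -0.59 in clone E3 and -0.31 after division by totals. The cause of these shifts was not tested. Depth is unknown, so counting error could not be separated from other spread.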
